A study of Homo sapiens with 4 samples.

Results

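The genes examined here encode the core of the human RNA interference machinery. They were chosen by name as the 10 genes DROSHA, DGCR8, XPO5, DICER1, TARBP2, PRKRA, AGO1, AGO2, AGO3 and AGO4, out of 18334 genes named on the arrays. All 10 were measured, through 15 of the 45220 features, each feature being 1 spot sequence on the array. The samples were cells of the line HEK293T, which derives from human embryonic kidney and expresses SV40 large T antigen, transfected with plasmids. In 1 condition the plasmid expressed a siRNA against CHD6, an ATP-dependent chromatin remodeler, and in the other a control siRNA, and total RNA was taken after 48 h. Each of the 4 Agilent arrays compared both conditions directly in 2 dyes, with the CHD6 siRNA sample in Cy3 on replicates 1 and 3 and in Hy5 on replicates 2 and 4. Both conditions carried an siRNA plasmid and no untransfected cells were analysed here, so values show the CHD6 siRNA relative to another siRNA, not relative to cells without RNA interference. The share of cells that took up the plasmid is not given in the labels.

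In the microRNA pathway, DROSHA and its RNA-binding partner DGCR8 cut the hairpin out of the primary transcript in the nucleus. Exportin-5, encoded by XPO5, carries the hairpin to the cytoplasm, where DICER1 cuts it to a short duplex with the help of the double-stranded RNA-binding proteins TRBP and PACT, encoded by TARBP2 and PRKRA. An Argonaute protein keeps 1 strand and binds matching transcripts. Of the human Argonautes, AGO2 is the one best known for cutting a fully matched target, which is how most siRNAs lower their target. The genes AGO4, AGO1 and AGO3 lie next to each other in that order on chromosome 1.

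DICER1 is itself a known target of the microRNAs miR-103 and miR-107 and of let-7. Their mature sequences are shown because host genes of these families were measured on the arrays and are described further on. The family of miR-33 is shown because its host SREBF1 is among the named genes. The sequences are from RefSeq (GRCh38.p14), written 5′ to 3′, with the seed (bases 2 to 8), which pairs with the target, in capitals.
miR-103a-3p: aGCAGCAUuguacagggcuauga
miR-107: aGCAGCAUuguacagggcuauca
let-7a-5p: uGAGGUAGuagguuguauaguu
let-7b-5p: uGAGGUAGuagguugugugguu
miR-33b-5p: gUGCAUUGcuguugcauugc
miR-33a-5p: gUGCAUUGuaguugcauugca
The first and second share 1 seed, as do the let-7 pair and the miR-33 pair. The miR-103a sequence lies within PANK3 (chr5:168560904-168560926, minus strand) and again within PANK2 (chr20:3917541-3917563, plus strand), and miR-107 lies within PANK1 (chr10:89592756-89592778, minus strand). The let-7a and let-7b copies shown lie within MIRLET7BHG (chr22:46112752-46112773 and chr22:46113691-46113712, plus strand). miR-33b lies within SREBF1 (chr17:17813897-17813916, minus strand) and miR-33a within SREBF2 (chr22:41900949-41900969, plus strand). The arrays measured gene transcripts, and mature microRNAs were not analysed here.

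Values are log ratios, taken as log2, of CHD6 siRNA over control siRNA. That direction follows the array titles and is likely, not settled. The deposited columns ran against each other by dye: arrays of opposite orientation correlated at -0.84 to -0.68 across features, and arrays of like orientation at 0.79 and 0.80. Values are therefore also given with the columns turned by dye, which is the treatment difference if the columns were Hy5 over Cy3. CHD6, averaged over 3 features, was at -0.42, -0.43, -0.28 and -0.65 on replicates 1 to 4, below control on all arrays. Its mean was -0.45 ± 0.15 (SD, n = 4; limma adjusted p = 0.134), or 73.4% of control. Its feature 27564 was at -1.15 ± 0.24 (SD, n = 4; limma adjusted p = 0.0339 over all features), or 45.0% of control. Features 1672 and 36130 were at -0.015 and -0.17 (adjusted p = 0.984 and 0.805), and the median over the 3 features gave CHD6 a mean of -0.20. For feature 27564, without replicate 1, 2, 3 or 4 the mean was -1.08, -1.21, -1.22 and -1.10, an alternative chosen after seeing the data. With 1 array left in 1 orientation, these fits cannot decide whether the feature passes. Turned by dye, CHD6 would be at -0.10 and that feature at -0.16. CHD6 was also used to choose the direction, so it is no independent check of it. Whether separate cultures stand behind the 4 replicates is not given in the labels, so the p-values cover array-to-array spread that may be only technical.

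No RNA interference gene passed the test with the columns read as deposited, the reading of this paragraph. Turned by dye the result differed, as given further on. Mean log ratios ran from -0.13 for DICER1 to 0.14 for AGO3, with 5 genes above 0 and 5 below. With dye orientation as a term in the model, limma called 0 of the 10 genes at an adjusted p under 0.05 (adjusted p from 0.651 to 0.988), against 0.0218% of all genes, 4 in number. At an unadjusted p under 0.05 it gave 0 of 10, against 9.37% of all genes. Without the dye term it also called 0 of 10 (0.0% of all genes), with 0 of 10 at an unadjusted p under 0.05 against 1.32%. The median over the 10 genes was -0.03 and that over all genes -0.0025. The size of the means was also like that of genes at large, with a median absolute value of 0.069 for the 10 genes and 0.064 for all genes. In these bulk RNA samples, a change in every cell and a change in a part of the cells cannot be told apart.

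With the columns read as deposited, the 95% confidence intervals bound the ratio averaged over the features of a gene, given the spread between arrays. They do not bound a change seen by only some features. For CHD6 the interval was -0.62 to -0.28, while its feature 27564 was at -1.15. Over the 10 genes, the lowest bound was -0.35, for DICER1, which is 78.6% of control. The highest was 0.34, for AGO3, a 1.26-fold ratio. Each interval included 0 and each covers 1 gene at a time. An exact sign-flip test on 4 arrays cannot give a two-sided p below 0.125, so the statements rest on the model's shared estimate of the spread.

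**Figure D1:**
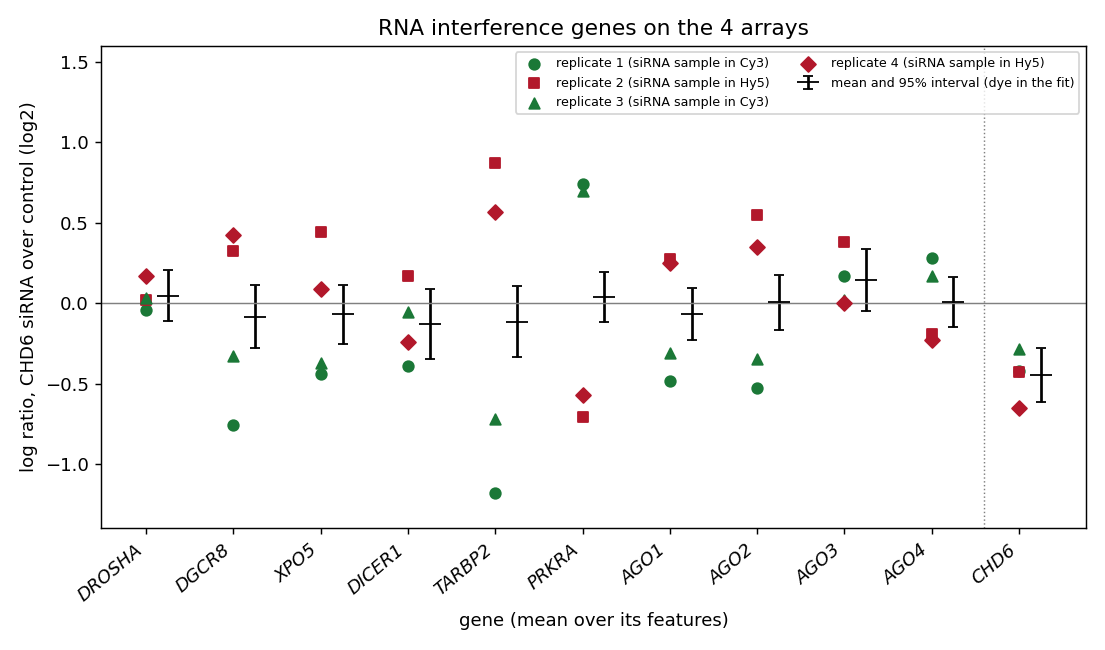
Log ratio (log2, y axis) of each RNA interference gene and of CHD6 (x axis) on the 4 arrays, coloured by the dye of the siRNA sample, with the mean and its 95% confidence interval beside the points. The points of TARBP2 and PRKRA split by colour in opposite directions around means near 0, whereas CHD6 lies below 0 on all 4 arrays.

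Of the Microprocessor pair, DROSHA, the nuclear ribonuclease, had the smallest scatter of the 10 genes. It was at -0.04, 0.02, 0.03 and 0.17 on replicates 1 to 4, all close to 0. Its mean was 0.04 ± 0.09 (SD, n = 4; 95% interval -0.11 to 0.20). DGCR8, which recognises the primary hairpin, was at -0.76, 0.33, -0.33 and 0.43. Both Cy3 arrays were below 0 and both Hy5 arrays above it, without overlap. The mean was -0.08 (95% interval -0.28 to 0.11). DROSHA rests on 1 feature and DGCR8 on 2 features annotated to 1 transcript, with means of -0.10 and -0.06.

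XPO5, the nuclear export receptor for microRNA precursors, was at -0.44, 0.44, -0.37 and 0.09 on replicates 1 to 4. It was low on the Cy3 arrays and high on the Hy5 arrays, where the values differed by 0.35. The mean was -0.07 ± 0.41 (SD, n = 4; 95% interval -0.25 to 0.11).

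Of the dicing genes, TARBP2 and PRKRA differed more between arrays than any other member, while DICER1 differed less. DICER1, the cytoplasmic ribonuclease, was at -0.39, 0.17, -0.06 and -0.24 on replicates 1 to 4. It was high on replicate 2 and low on the others, and the orientations overlapped. The mean was -0.13 ± 0.24 (SD, n = 4; 95% interval -0.35 to 0.09; limma adjusted p = 0.727), the lowest of the 10 genes in this fit. That mean ranged from -0.23 without replicate 2 to -0.028 without replicate 4, where DGCR8 (-0.11), AGO1 (-0.061) and TARBP2 (-0.04) were lower. Without replicate 1 it was -0.0475, and XPO5 (-0.0525) was lower. With features averaged per accession first it was -0.081, and TARBP2 (-0.12) and DGCR8 (-0.084) were lower.

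The 3 features of DICER1 did not have 1 sign. Features 4327 and 5385, annotated to 1 transcript, had means of -0.27 and -0.19. Feature 9390, annotated to an expressed sequence tag, had a mean of 0.07. None passed over all features (smallest limma adjusted p of any feature of the 10 genes = 0.747, against 0.0199% of features called).

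TARBP2, which encodes a Dicer partner that binds double-stranded RNA, was at -1.18, 0.87, -0.72 and 0.57 on replicates 1 to 4. It was far below 0 on both Cy3 arrays and far above it on both Hy5 arrays, yet the mean was -0.12 ± 0.99 (SD, n = 4; 95% interval with dye in the model -0.34 to 0.11). PRKRA, its paralogue and an activator of the kinase PKR, was at 0.74, -0.71, 0.70 and -0.57. Its orientations ran the other way, high in Cy3 and low in Hy5, around a mean of 0.04 ± 0.79 (SD, n = 4; 95% interval -0.12 to 0.20). Each of these genes rests on 1 feature.

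Among the Argonautes, AGO2, the slicing member, was at -0.53, 0.55, -0.35 and 0.35 on replicates 1 to 4. The Cy3 arrays were low and the Hy5 arrays high, and they cancelled to a mean of 0.0050 ± 0.53 (SD, n = 4; 95% interval -0.17 to 0.18). AGO1 was at -0.49, 0.28, -0.31 and 0.25, split by dye in the same sense, with a mean of -0.07 (95% interval -0.23 to 0.09).

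AGO3 was at 0.17, 0.38, 0.02 and 0.00 on replicates 1 to 4, never below 0 and highest on replicate 2. Its mean of 0.14 ± 0.18 (SD, n = 4; 95% interval -0.05 to 0.34; limma adjusted p = 0.651) was the highest of the 10 genes in this fit. It was 0.24 without replicate 4 and 0.048 without replicate 2, where DROSHA (0.083) and PRKRA (0.075) were higher. AGO4 was at 0.28, -0.19, 0.17 and -0.23, split by dye in the opposite sense to AGO1 and AGO2, with a mean of 0.0075 (95% interval -0.15 to 0.16). The neighbours AGO4, AGO1 and AGO3 thus did not share 1 pattern over the arrays.

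In order of mean log ratio the genes ran from AGO3, DROSHA, PRKRA, AGO4 and AGO2 to AGO1, XPO5, DGCR8, TARBP2 and DICER1. No neighbours in this order differed beyond their intervals, which all overlapped. Between arrays of the same orientation, the values of 1 gene differed by 0.16 in the median and by at most 0.46, for TARBP2 on replicates 1 and 3. The range of the 10 means was thus of the size of the difference between like arrays.

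**Figure D2:**
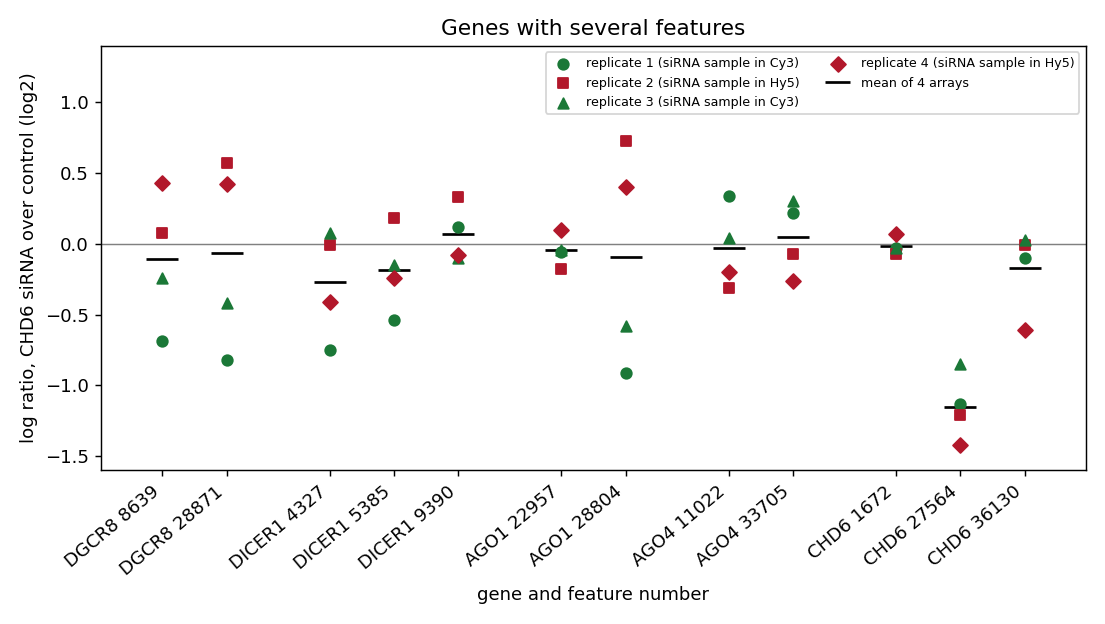
Log ratio (log2, y axis) of each feature (x axis) of the genes with several features on the 4 arrays, coloured by the dye of the siRNA sample, with the mean as a line. The features of AGO1 differ in their split by dye, and 1 of the 3 CHD6 features, 27564, lies apart from the others at -1.15.

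Features of 1 gene also differed in how far they split by dye. AGO1 feature 28804 was at -0.91, 0.73, -0.58 and 0.40 on replicates 1 to 4, whereas feature 22957, which shares its annotated transcript, had values of -0.06, -0.18, -0.04 and 0.10. The dye coefficient, which is the mean of the Hy5 arrays minus the midpoint of both orientations, was 0.66 for the first (limma adjusted p = 0.00151 over all features) and 0.0050 for the second (adjusted p = 0.972). Their means over the arrays were alike, at -0.09 and -0.04. The features of DGCR8 had dye coefficients of 0.56 and 0.36, and those of AGO4 -0.22 and -0.21. Of the 15 features of the 10 genes, 7 passed on this coefficient, against 37.3% of all features.

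With the columns turned by dye, the same genes would show large differences. In that reading limma called 7 of the 10 genes at an adjusted p under 0.05, against 44.8% of all genes, and also 7 without a dye term, against 42.0%. Of the 7, 5 would be higher in CHD6 siRNA cells (26.9% of all genes) and 2 lower (18.0%). TARBP2 would be at 0.84 (95% interval 0.61 to 1.06; adjusted p = 0.000326), a 1.78-fold ratio, and PRKRA at -0.68 (-0.84 to -0.52; adjusted p = 0.000196), or 62.4% of control.

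DGCR8 (0.46), AGO2 (0.45), XPO5 (0.34) and AGO1 (0.33) would be higher and AGO4 (-0.22) lower, with adjusted p-values from 0.00175 to 0.0298. DICER1 (0.09), DROSHA (0.05) and AGO3 (0.05) would not pass. These 3 genes were the ones that passed in neither reading. Turned by dye, 44.8% of all genes passed, so not passing was common among all genes too. The median absolute value over the 10 genes would be 0.33, against 0.19 for all genes.

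**Figure D3:**
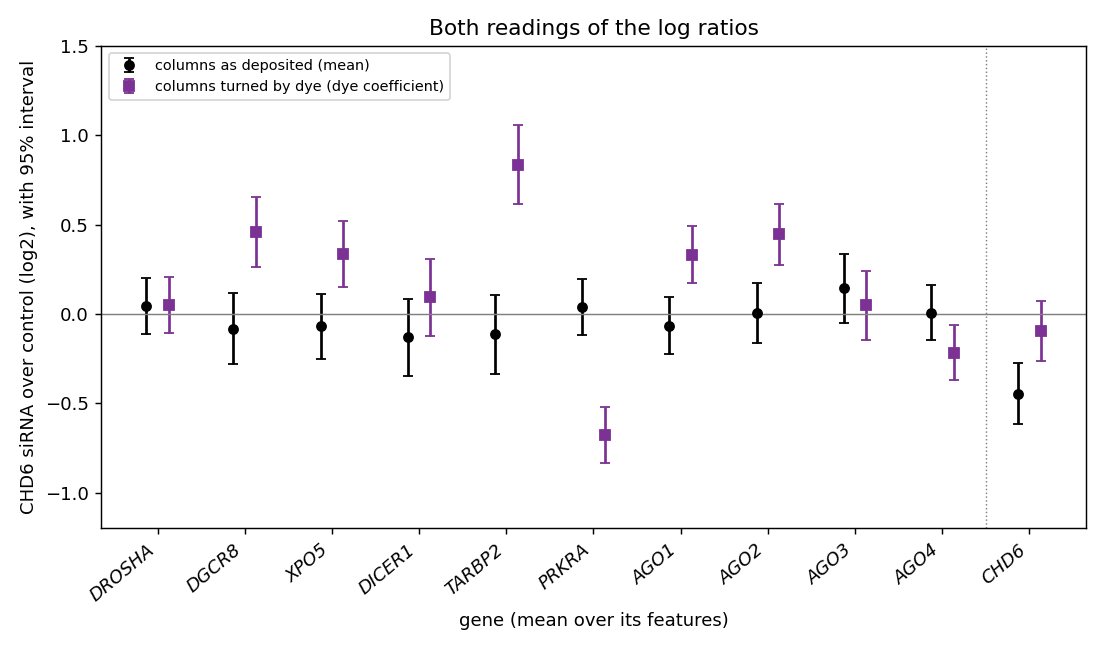
Estimate with its 95% confidence interval (log2, y axis) for each RNA interference gene and CHD6 (x axis), with the columns as deposited (circles) and turned by dye (squares). All 10 genes cover 0 as deposited, while turned by dye TARBP2 would be at 0.84 and PRKRA at -0.68.

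The split by dye was shared with the arrays at large. Of the 10 genes, 7 had opposite signs in the dye orientations, against 52.7% of all genes. Of these, 5 were above 0 in Hy5 (31.3% of all genes) and 2 above 0 in Cy3 (21.3%). None had 1 sign on all 4 arrays, against 7.04% of all genes, of which 3.55% were above 0 throughout and 3.49% below. Over the 10 genes the median log ratio was -0.42, 0.30, -0.18 and 0.13 on replicates 1 to 4. Over all genes it was -0.05, 0.05, -0.04 and 0.03. What part of the split came from the dye and what part from the treatment was not tested.

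By the root mean square difference over the 4 arrays, the closest members were AGO1 and XPO5 (0.12), and the farthest were TARBP2 and PRKRA (1.54). AGO2 was also closest to XPO5 (0.15), DGCR8 to AGO1 (0.16) and AGO3 to DROSHA (0.23). Among all genes, KLHL13 (0.045) and CLEC3B (0.052) and an uncharacterised locus were nearest to AGO3, the gene with the largest mean. With 4 arrays such likeness is a description.

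Around the core machinery, 7 lists of related genes were examined, and 126 of their 139 genes were measured. None was called (smallest limma adjusted p = 0.141), against 0.0218% of all genes, and 11 (8.73%) had an unadjusted p under 0.05, against 9.37% of all genes. Turned by dye, 58 of them (46.0%) would be called, against 44.8%.

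Nuclear cofactors of the Microprocessor, such as the helicases DDX5 and DDX17 and the hairpin regulator KHSRP, had a median of -0.015 over 15 genes. The 1 gene with 1 sign on all arrays was SAFB2, which encodes a scaffold attachment factor, at 0.17, 0.09, 0.03 and 0.12 on replicates 1 to 4. It was above 0 throughout, with a mean of 0.10 ± 0.06 (SD, n = 4; limma adjusted p = 0.709). Genes that edit, tail or degrade precursors, among them LIN28A, LIN28B and the uridylyltransferases TUT4 and TUT7, had a median of 0.02 over 12 genes. Genes for Argonaute loading and its chaperones had a median of -0.015 over 13 genes. In neither of these lists did a gene have 1 sign on all arrays.

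Of the silencing effectors, which shorten, decap and degrade bound transcripts, 32 were measured, with a median of 0.03. CNOT11, a subunit of the CCR4-NOT deadenylase complex, was at -0.52, -0.17, -0.51 and -0.55 on replicates 1 to 4. It was low on all arrays and least so on replicate 2. The mean was -0.44 ± 0.18 (SD, n = 4), or 73.8% of control, and did not pass (limma adjusted p = 0.175). TNRC6C, a GW182 protein that links Argonautes to deadenylases, was at -0.36, -0.08, -0.21 and -0.18, with a mean of -0.21 (adjusted p = 0.408).

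Its paralogues TNRC6A and TNRC6B were at -0.0087 and 0.10 (adjusted p = 0.984 and 0.771). MOV10, a helicase that associates with Argonautes, was chosen after its values were seen. It was at -0.03, 0.54, 0.28 and 0.68 on replicates 1 to 4, high on the Hy5 arrays. Its mean was 0.37 ± 0.31 (SD, n = 4; limma adjusted p = 0.217). Turned by dye it would be at 0.24 and pass with dye in the fit (adjusted p = 0.0360), but not without it (0.248).

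**Figure D4:**
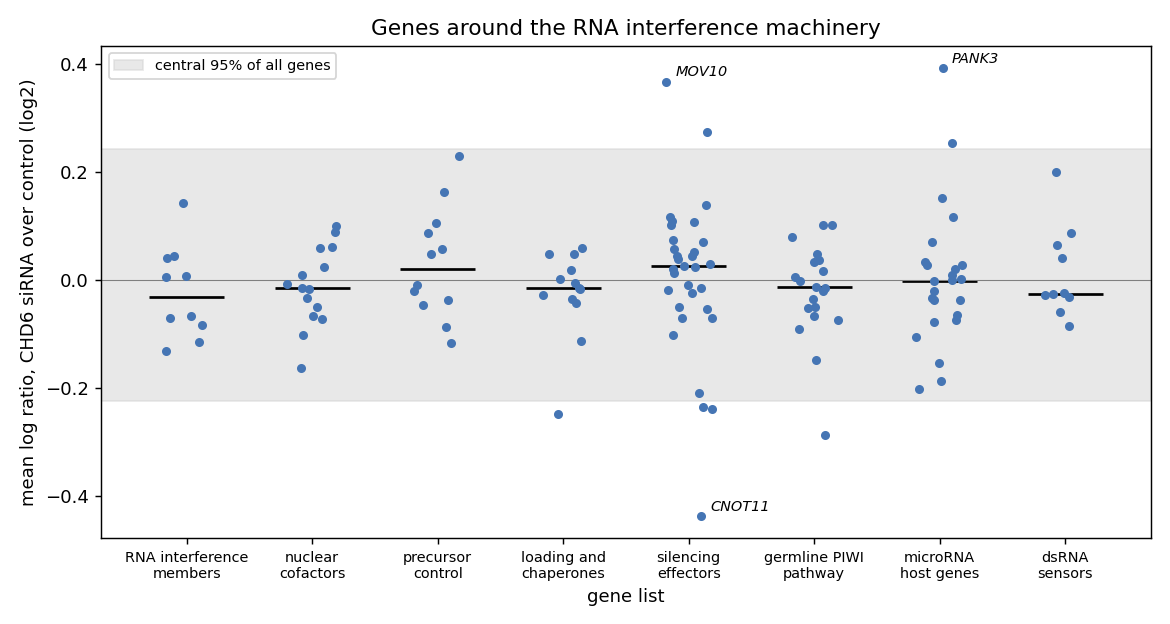
Mean log ratio (log2, y axis) of each measured gene in the RNA interference group and in 7 lists of related genes (x axis). The median of each list is a line, and the central 95% of all genes, -0.22 to 0.24, is in grey. The 10 RNA interference genes lie inside the grey band, and the labelled MOV10, PANK3 and CNOT11 lie farthest outside it, with others of the lists, such as SREBF1, PLD6 and IPO8, nearer to its edges.

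Host genes of microRNAs had a median of -0.0012 over 24 measured genes. PANK3, a pantothenate kinase of coenzyme A synthesis and a host of miR-103a, was the highest in this fit. It was at 0.56, 0.17, 0.62 and 0.22 on replicates 1 to 4, above 0 throughout and higher on the Cy3 arrays. Its mean was 0.39 ± 0.23 (SD, n = 4), or 131.3% of control, and did not pass (limma adjusted p = 0.141). The median over its 3 features gave 0.245, where SREBF1 (0.254) was higher, and averaging per accession first gave 0.33. Turned by dye, PANK3 would be at -0.20 and pass with dye in the fit (limma adjusted p = 0.0423), but not without it (0.362). PANK2, the other host of miR-103a, was at 0.0025 (limma adjusted p = 0.992), and PANK1, the host of miR-107, at 0.15 (adjusted p = 0.625). Turned by dye, PANK1 would be at -0.26 and pass with dye in the fit (adjusted p = 0.0355), but not without it (0.0644). DICER1, a known target of this seed, was at -0.13 and did not pass, as given above. A link between the values of these hosts and of DICER1 was not tested.

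MIRLET7BHG, which holds let-7a and let-7b, was at -0.11, -0.03, -0.10 and -0.07, with a mean of -0.08 (adjusted p = 0.779). SREBF1, a regulator of lipid synthesis and the host of miR-33b, was at 0.09, 0.39, 0.06 and 0.48, higher on the Hy5 arrays, with a mean of 0.25 (adjusted p = 0.300). SREBF2, a regulator of cholesterol synthesis and the host of miR-33a, was at -0.78, 0.67, -0.66 and 0.88, low in Cy3 and high in Hy5. Its mean was 0.03 (adjusted p = 0.944), and turned by dye it would be at 0.75 and pass (adjusted p = 0.000175). Primary microRNA transcripts and processed host messages cannot be told apart by these features. PANK1, PANK2, SREBF2, MIRLET7BHG, TNRC6A and TNRC6B were named after their values were seen, as relatives of genes named by rule.

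The germline PIWI pathway, whose proteins are relatives of the Argonautes, had a median of -0.01 over 20 genes. TDRD5, a tudor-domain gene of the germline, was at 0.10 ± 0.08 and PIWIL3 at -0.08 ± 0.05 (SD, n = 4 each), each with 1 sign on all arrays and neither past the test (limma adjusted p = 0.704 and 0.791). Sensors of double-stranded RNA had a median of -0.03 over 10 genes. EIF2AK2, which encodes the kinase PKR that PACT activates and was chosen after its values were seen, was at 0.16, -0.11, -0.18 and 0.03, around a mean of -0.03 (95% interval -0.21 to 0.16).

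Markers of other cell types, for which 11 of 12 genes were measured, had means from -0.12 to 0.16 and a median of 0.015, and 0 were called. Of these, HBB and PTPRC had 1 sign on all arrays, at 0.07 and 0.05. The analysed values were ratios without intensities, so the levels of these markers, and of the RNA interference genes themselves, are unknown here.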

How the data were processed

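Total RNA (200 ng per the labels' protocols) was amplified from an oligo dT-T7 primer and labelled for Agilent 2-colour arrays. The deposited values were log2 ratios of both channels, 1 column per array. Base 2 is assumed, because the SD of a column then corresponds to ratios of 1.36 to 1.43, and under base 10 to ratios of 2.75 to 3.27. Column medians were -0.02, 0.03, -0.02 and 0.02 for replicates 1 to 4 and column means 0 within rounding. For scanner software, background correction, normalization and ratio direction, the labels and headers give nothing. Intensities and flags were not used, so signal over background is unknown and precision is limited by having 4 arrays. There were 0 unused columns.

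Names came from the annotation table of the array platform, brought up to date with RefSeq by Entrez identifier (GRCh38.p14; 31291 matched). Of the features, 31332 named 1 gene, 93 several and 13795 none. Features naming 1 gene were averaged into 18334 genes. The columns were read as deposited, and also turned by dye (the sign of the Cy3 arrays flipped).

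All genes were fitted together in limma 3.58.1 (R 4.3.3) with a mean and a dye coefficient (+1 for the siRNA sample in Hy5, -1 in Cy3), eBayes and p-values adjusted by Benjamini-Hochberg across all genes, called at an adjusted p under 0.05. Turned by dye, the treatment difference is the dye coefficient. Alternatives left out the dye term, the moderation or 1 replicate, or changed the averaging, centring or scaling.

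The members, lists and model were chosen with earlier results of these data known. Named from each list were genes past the test (at most 4), then the 2 smallest p-values with 1 sign on all 4 arrays. The likeness rule took each member's nearest member and the 3 genes nearest to the member with the largest mean.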

Additional observations from a re-analysis of the deposited data

Results flagged for a closer look

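Among 28 groups of 4 values examined for an array far from the other 3, 1 was found. Chance flags about 1 in 20 groups, or 1.4 of these, if the 4 values of a group share 1 normal spread. Values that split by dye seldom give such a flag, so 1.4 is likely too high. CNOT11 was at -0.17 on replicate 2, against -0.51 on the nearest other array.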

How the results depend on the processing

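The count of 0 RNA interference genes called was the same in each of the 10 alternatives that kept the direction of the columns. The intercept alone called no gene of all. Fits without 1 replicate have 1 array in 1 orientation, so these cannot decide the count. The others called 4 to 9 genes of all, so the unchanged count is little support for the result. The count of RNA interference genes called became 7 with the columns turned by dye, with or without dye orientation in the fit. The count of genes called, 4, was 0 with the intercept alone, 8 with the median over features, 7 with columns centred on their median, 9 with columns scaled to equal median absolute deviation, 7700 turned by dye with the intercept alone and 8219 with dye in the fit; it was 0 without any 1 replicate. The 7 genes called on the dye coefficient became 0 with ordinary standard errors and 4 to 6 without 1 replicate, which leaves 1 array in 1 orientation, assumed to vary like the others. The median over the 10 genes lay from -0.06 to 0.01 without 1 replicate.

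Turned by dye, the sign changed for DICER1 (0.093), DGCR8 (0.46), AGO1 (0.33), AGO4 (-0.22), XPO5 (0.34), TARBP2 (0.84), PRKRA (-0.68), CNOT11 (0.077), TNRC6C (0.079), PIWIL3 (0.0050), PANK3 (-0.20), PANK1 (-0.26), PANK2 (-0.028), MIRLET7BHG (0.028) and TNRC6A (0.075). Without 1 replicate the sign changed within these ranges: DGCR8 -0.19 to 0.0225, AGO2 -0.045 to 0.055, AGO4 -0.02 to 0.035, XPO5 -0.16 to 0.0175, PANK2 -0.0175 to 0.0225, SREBF2 -0.025 to 0.08, TNRC6A -0.087 to 0.069 and EIF2AK2 -0.11 to 0.06. The causes were not tested. Each value already compares both conditions on 1 array, so the test of the mean is a comparison within arrays. The arrays form 1 group, and no further pairing was made.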
